A study of Arabidopsis thaliana with 16 samples.

Results

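H3K27me3 was followed over 5 genes that act in the abscisic acid (ABA) response of seeds, namely *ABI4* (AT2G40220), *ABI5* (AT2G36270), *EEL* (AT2G41070), *bZIP67* (AT3G44460) and *AREB3* (AT3G56850). They were taken by name, out of 27444 protein-coding genes on chromosomes 1 to 5. For each gene the bases under H3K27me3 peaks, and the fold of those peaks, were measured over the gene body and 2 kb upstream of its annotated start. ChIP-seq peak lists were available for 12 libraries of *Arabidopsis thaliana* seedlings, 2 replicates for each of 3 genotypes harvested 3 days and 1 day after imbibition (3 DAI and 1 DAI). *Atsdr4l-4* and *Atsdr4l-5* each carry a segmental deletion in *AtSDR4L*, a regulator named after SEED DORMANCY 4, and Col-0 is the wild type in whose background both were made. *Atsdr4l-4* descends from one allele of an earlier mutant, and *Atsdr4l-5* seeds were bulked from backcrossed lines free of the Cas9 transgene. All groups were grown on medium with 1% sucrose. Because whole seedlings were used, a peak carried by fewer cells and a weaker peak carried by all cells cannot be told apart.

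ABI4 is a transcription factor of the AP2/ERF family, and ABI5, EEL, bZIP67 and AREB3 are related group A basic leucine zipper (bZIP) factors, which bind the ABA-responsive element (ABRE). ABI5 holds back growth after germination when ABA is present, EEL can compete with ABI5 at the promoter of the late embryogenesis gene *EM1*, and bZIP67 works with LEC1 during seed filling. H3K27me3 is laid down by Polycomb Repressive Complex 2 and marks repressed genes, among them many seed genes once the seedling is established.

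The lists held 6582 to 7068 peaks at 3 DAI and 6474 to 6800 at 1 DAI on chromosomes 1 to 5. These covered 24.9 to 28.2 Mb at 3 DAI and 21.3 to 25.3 Mb at 1 DAI. The ranges overlapped in both, and *Atsdr4l-4* replicate 1 covered less at 3 DAI (24.9 Mb) than at 1 DAI (25.3 Mb). The median fold of a list was 2.045 to 2.231 at 3 DAI and 1.795 to 1.988 at 1 DAI, without overlap. Organellar peaks, up to 27 in a list, were called at 1 DAI only, and *Atsdr4l-4* replicate 1 had none. How far such differences between lists enter the comparisons over time was not tested. The lists hold no read counts and the depth of each library is unknown. The gene bodies of *AG*, *STM* and *WUS*, well-known H3K27me3 targets, were 99.6% to 100% covered in all 12 libraries, and those of *ACT2*, *ACT8* and *UBQ10* had no covered base in any. With the 2 kb upstream added, these 3 genes had covered bases too, and *UBQ10* was called higher at 3 DAI, at a mean of 1194 bp at 3 DAI and 539 bp at 1 DAI (exact permutation p = 0.00926, adjusted p = 0.042 over all genes with a covered base). *ACT2* averaged 1803 bp at 3 DAI and 1902 bp at 1 DAI. The labels do not say whether replicates came from separate cultures, so the p-values measure the spread between these samples, which may be technical.

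The 5 genes fell into 3 patterns. *bZIP67* had a strong peak over its start in all 6 libraries at 3 DAI, and only a weak one in 1 of 6 libraries at 1 DAI. *ABI4* lay inside a broad domain in all 6 libraries at 1 DAI, which was whole in 3 of 6 libraries at 3 DAI. *ABI5*, *EEL* and *AREB3* had no covered base in any of the 12 libraries. The sequences just before the starts of *bZIP67* and *ABI5* are shown because the peaks of 3 DAI lie over that of *bZIP67* and no peak was called over that of *ABI5*. Each is the 250 bases before the gene start, read from RefSeq TAIR10.1, 5′ to 3′ in the direction of transcription. They lie at chr3:16081907-16082156 and chr2:15207637-15207886, both on the minus strand. Capitals mark the letters CACGTG (G-box), ACGTG (ABRE core), CATGCA (RY element, bound by B3 factors such as ABI3), AACCCTA (telobox) and GAGAGA (GA repeat), searched on both strands.
bZIP67: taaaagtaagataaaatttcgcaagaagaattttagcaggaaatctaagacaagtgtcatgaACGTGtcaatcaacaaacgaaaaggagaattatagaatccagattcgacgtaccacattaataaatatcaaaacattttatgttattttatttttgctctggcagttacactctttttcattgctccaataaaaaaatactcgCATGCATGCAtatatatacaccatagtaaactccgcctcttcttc
ABI5: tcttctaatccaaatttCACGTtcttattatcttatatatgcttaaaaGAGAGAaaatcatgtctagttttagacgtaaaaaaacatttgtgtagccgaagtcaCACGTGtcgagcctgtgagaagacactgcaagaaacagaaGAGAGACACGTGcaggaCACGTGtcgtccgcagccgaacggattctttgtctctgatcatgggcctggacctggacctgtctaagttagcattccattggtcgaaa

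In *bZIP67* the capitals hold 1 ABRE core and 3 overlapping RY matches in a single run. An RY match is found in 8.43% of 27443 promoters of this length and an ABRE core in 22.9%. *ABI5* held 3 G-boxes, and at least 1 G-box is found in 6.49% of promoters. It also held 7 ABRE core matches, most of which lie inside the G-boxes because the longer motif contains the shorter one on both strands. *ABI5* held 2 GA repeats as well, and at least 1 GA repeat occurs in 20.6% of promoters. No telobox, found in 6.56% of promoters, was in either sequence.

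**Figure D1:**
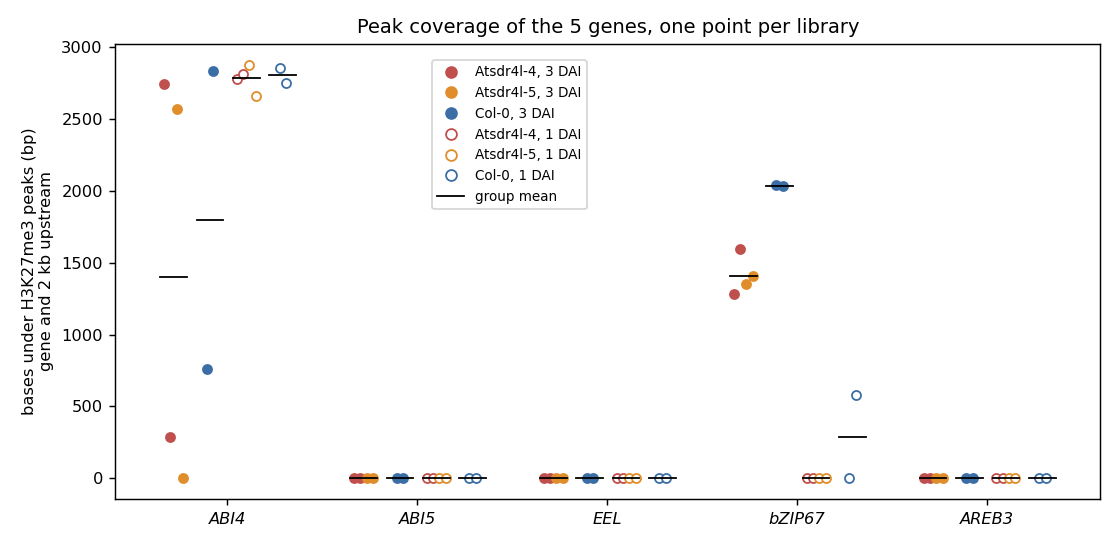
Bases under H3K27me3 peaks (bp) over the gene and 2 kb upstream, one point per library, for the 5 genes, with filled points for 3 DAI, open points for 1 DAI, and within each time point *Atsdr4l* (red and orange) left of Col-0 (blue). Lines are group means. *bZIP67* is covered at 3 DAI, *ABI4* scatters from 0 to 2834 bp at 3 DAI, and *ABI5*, *EEL* and *AREB3* stay at 0.

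*bZIP67*, which the annotation lists as *DPBF2*, lies on chromosome 3 at 16079432 to 16081906 on the minus strand, and its window spans 4475 bp. At 3 DAI peaks covered 1286 and 1593 bp of it in *Atsdr4l-4*, 1353 and 1408 bp in *Atsdr4l-5*, and 2039 and 2033 bp in Col-0. At 1 DAI they covered 0 bp in all 4 *Atsdr4l* libraries and 0 and 579 bp in Col-0. Every library of 3 DAI was thus above every library of 1 DAI. The mean was 1619 ± 339 bp at 3 DAI and 96.5 ± 236 bp at 1 DAI (SD, n = 6 each), a difference of 1522 bp averaged over genotypes. When time labels were permuted exactly, genotype by genotype, this difference had the smallest p that the design can give (p = 0.00926, two-sided, adjusted p = 0.042 over all 15417 genes with a covered base). Over all those genes 19.5% were called higher at 3 DAI, and 15.3% had groups that did not overlap with 3 DAI higher, so a gain of this kind was common. All 3399 called genes, higher or lower, shared this smallest p, so the adjusted value turns on how many other genes reach it. It was 0.0538 for the gene alone and 0.0571 for the 2 kb upstream alone, settings in which no gene of the genome was called, although *bZIP67* kept its direction and the smallest p in both. Without single libraries the adjusted p ran up to 0.053, and it was above 0.05 without either *Atsdr4l-4* replicate of 1 DAI, Col-0 replicate 1 of 3 DAI, or either *Atsdr4l-5* replicate of 3 DAI. With any of those libraries left out, no gene of the genome was called.

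The *bZIP67* peaks of 3 DAI were among the strongest of their lists. Their fold, the ratio of pileup to local background, was 3.22 and 3.26 for *Atsdr4l-4*, 3.40 and 3.24 for *Atsdr4l-5*, and 3.23 and 3.39 for Col-0, whereas the median peak of a list at 3 DAI had a fold of 2.05 to 2.23. These folds ranked at percentile 86.9 to 94.7 of the *Atsdr4l* lists and 94.8 and 96.7 of the Col-0 lists. Their −log10 q was 28.4 to 43.1 in *Atsdr4l* and 39.8 and 38.3 in Col-0. The groups overlapped in fold and in −log10 q. The single peak of 1 DAI, in Col-0 replicate 2, ran from 78 bp before to 500 bp after the start with a fold of 1.602, at the 21.8th percentile of its list. It lay inside the stretch that all 6 libraries covered at 3 DAI, which reached from 485 bp before to 800 bp after the start.

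At 3 DAI the genotypes differed in where the *bZIP67* peak ended within the gene. In the 4 *Atsdr4l* libraries it ended 800 to 847 bp after the start, inside exon 2, and in the Col-0 libraries it ended 1477 and 1385 bp after the start, inside intron 4. The mean end was 830 ± 21.1 bp in *Atsdr4l* (SD, n = 4) and 1431 ± 65.1 bp in Col-0 (SD, n = 2). On the upstream side the peaks began 485 to 745 bp before the start in *Atsdr4l* and 561 and 647 bp before it in Col-0, and the groups overlapped. Of the gene body 801 to 848 bp was covered in *Atsdr4l* and 1478 and 1386 bp in Col-0. Over the whole window the mean was 1410 ± 132 bp in *Atsdr4l* and 2036 ± 4.24 bp in Col-0, a difference of -626 bp without overlap. The exact permutation over 15 splits gave p = 0.0667 (two-sided, adjusted p = 0.77), the smallest that design allows, so it cannot pass 0.05. Among all genes with a covered base at 3 DAI, 13.4% had *Atsdr4l* below Col-0 without overlap and 2.64% had it above. The whole lists of 3 DAI covered 24.9 and 28.2 Mb in *Atsdr4l-4*, 25.9 and 26.4 Mb in *Atsdr4l-5*, and 27.5 and 27.6 Mb in Col-0. How far such differences between lists enter the end of the *bZIP67* peak or its covered length was not tested. Over both time points *Atsdr4l* was 458 bp below Col-0 at *bZIP67* (exact permutation p = 0.0222, adjusted p = 0.488), and no gene of the genome passed the adjusted threshold, while 928 genes were lower and 312 higher at an unadjusted p below 0.05. Whether the time difference itself was smaller in *Atsdr4l* was not resolved (difference of -337 bp, exact permutation p = 0.289, adjusted p = 1). It was -47 bp without Col-0 replicate 1 of 1 DAI and -626 bp without Col-0 replicate 2 of 1 DAI. By genotype the time difference was 1440 bp in *Atsdr4l-4*, 1380 bp in *Atsdr4l-5* and 1746 bp in Col-0.

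The stretch that only the Col-0 libraries covered at 3 DAI, and both of them did, was 538 bp long, from 848 to 1385 bp after the start. It takes in the end of exon 2, exons 3 and 4, and the first bases of intron 4. Its first 300 bases, chr3:16080759-16081058 on the minus strand, are shown because they hold the edge at which the genotypes part. Exons are in capitals, and the end of exon 2 encodes the basic, DNA-contacting region of the bZIP domain.
bZIP67 edge: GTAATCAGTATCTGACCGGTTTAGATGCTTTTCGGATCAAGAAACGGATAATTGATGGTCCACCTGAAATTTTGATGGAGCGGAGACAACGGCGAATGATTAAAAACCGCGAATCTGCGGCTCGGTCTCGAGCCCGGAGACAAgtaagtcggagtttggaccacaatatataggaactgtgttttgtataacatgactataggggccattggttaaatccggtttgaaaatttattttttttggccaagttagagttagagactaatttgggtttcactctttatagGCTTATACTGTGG

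**Figure D2:**
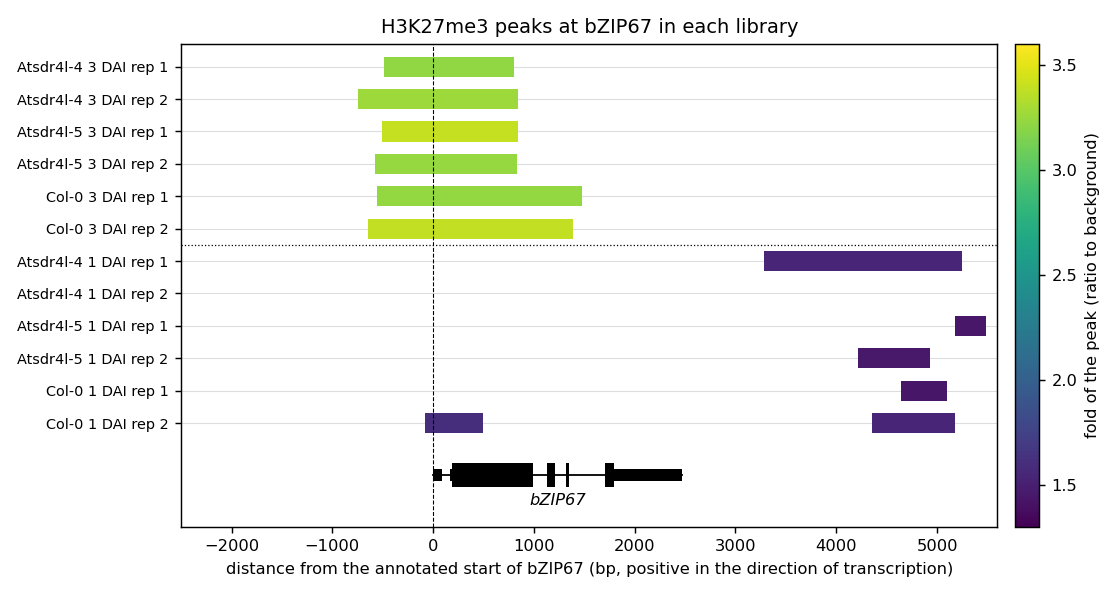
H3K27me3 peaks at *bZIP67* in each library (rows), by distance from the annotated start (bp), coloured by fold, with exons as black boxes and coding parts taller. All 6 peaks of 3 DAI cross the start with folds of 3.22 to 3.40, the 4 *Atsdr4l* peaks end by 847 bp and the Col-0 peaks at 1385 and 1477 bp.

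Downstream of *bZIP67*, weak peaks were present at 1 DAI and absent at 3 DAI. They lay between 3281 and 5482 bp after the gene start in *Atsdr4l-4* replicate 1, both *Atsdr4l-5* and both Col-0 libraries of 1 DAI, with folds of 1.43 to 1.54. A wider window, with 5 kb upstream and 2 kb downstream of the gene, takes in part of the peaks of *Atsdr4l-4* replicate 1, *Atsdr4l-5* replicate 2 and Col-0 replicate 2, while the others lie beyond it. Over that window *bZIP67* was 1260 bp higher at 3 DAI (exact permutation p = 0.00926, adjusted p = 0.0336). There 24.7% of 20563 genes were called higher and 2.89% lower at 3 DAI.

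*ABI4* is a single-exon gene on chromosome 2 at 16796247 to 16797585, on the minus strand, with a window of 3339 bp. The annotation starts it at its coding sequence, with no 5′ UTR. At 3 DAI peaks covered 2746 and 287 bp of the window in *Atsdr4l-4*, 2569 and 0 bp in *Atsdr4l-5*, and 758 and 2834 bp in Col-0. At 1 DAI they covered 2779 and 2813 bp in *Atsdr4l-4*, 2880 and 2664 bp in *Atsdr4l-5*, and 2858 and 2752 bp in Col-0. One replicate of each genotype thus kept its coverage at 3 DAI while the other held little or none, and the range at 3 DAI reached into that of 1 DAI. The mean was 1532 ± 1322 bp at 3 DAI and 2791 ± 78.3 bp at 1 DAI (SD, n = 6 each). The difference of -1259 bp had p = 0.037 in the exact permutation and did not pass after adjustment over all genes (adjusted p = 0.11), where 2.58% of genes were called lower. Without Col-0 replicate 2 of 3 DAI it was -1605 bp and passed (exact permutation, adjusted p = 0.0497).

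The whole gene body of *ABI4* was under a peak in all 6 libraries of 1 DAI. At 3 DAI it was whole in *Atsdr4l-4* replicate 1, *Atsdr4l-5* replicate 1 and Col-0 replicate 2, was 56.6% covered in Col-0 replicate 1, and had no covered base in the remaining *Atsdr4l* libraries. With a marked gene body defined as at least 50% covered, *ABI4* was marked in 4 of 6 libraries at 3 DAI and 6 of 6 at 1 DAI, and *bZIP67* in 2 of 6 at 3 DAI, both Col-0, and in none at 1 DAI. Over the genome 6789 to 7251 genes were marked in a library at 3 DAI and 5569 to 6101 at 1 DAI.

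At 1 DAI the *ABI4* domain was one peak, which began 1325 to 1541 bp before the start and ended 4406 to 4542 bp after it in *Atsdr4l*, and began 1413 and 1519 bp before and ended 4488 bp after the start in both Col-0 libraries. It also took in *AGL48* (AT2G40210), a MADS-box gene 3257 to 4372 bp after the *ABI4* start, and the microRNA gene *MIR5662*, at -1285 to -999 bp from it. At 3 DAI the end of the domain over *AGL48* remained in all 6 libraries, where 1111 to 1116 bp of its 1116 bp were covered. In the 3 libraries with a broken domain the *AGL48* part began 1580 bp after the *ABI4* start in *Atsdr4l-4* replicate 2, 2540 bp after it in *Atsdr4l-5* replicate 2 and 2153 bp after it in Col-0 replicate 1. Short weak peaks were left in *Atsdr4l-4* replicate 2, at -1104 to -818 bp from the start with a fold of 1.42, and in Col-0 replicate 1, 285 to 1042 bp after it with a fold of 1.41. These ranked at the 4.94th and 3.59th percentile of their lists.

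A separate weak peak upstream of *ABI4* was present in all 6 libraries of 1 DAI and in none of 3 DAI. All 6 shared the 359 bp from -4845 to -4487 bp relative to the start. With the wider window, which takes it in, peaks covered 799 to 4834 bp at 3 DAI and 5327 to 6275 bp at 1 DAI, without overlap, as in 1.87% of genes. The difference was -2632 bp (exact permutation p = 0.00926, adjusted p = 0.0336), a call that 2.89% of genes shared.

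**Figure D3:**
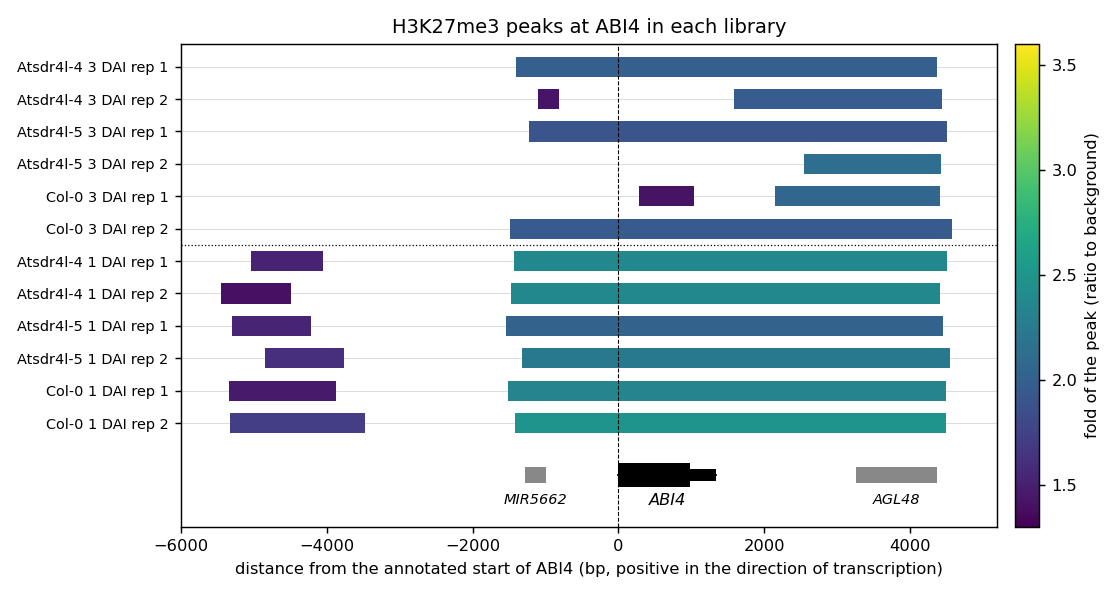
H3K27me3 peaks at *ABI4* in each library (rows), by distance from the annotated start (bp), coloured by fold, with *ABI4* in black and *AGL48* and *MIR5662* in grey. The domain is one peak in all 6 libraries of 1 DAI, is whole in 3 of 6 at 3 DAI, and keeps its *AGL48* end in all of them. The upstream peak between -5454 and -3478 bp is seen at 1 DAI only.

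Peak strength at *ABI4* was also compared, in the wider window, because no member had a peak in the narrow window in all 12 libraries. The strongest fold in the window was 1.98 and 1.97 for *Atsdr4l-4*, 1.91 and 2.12 for *Atsdr4l-5*, and 2.05 and 1.96 for Col-0 at 3 DAI. For *Atsdr4l-4* replicate 2, *Atsdr4l-5* replicate 2 and Col-0 replicate 1 at 3 DAI, that was the *AGL48* part of the broken domain. This part lay outside the narrow window, so the folds and ranks given here do not describe *ABI4* alone. At 1 DAI it was 2.37 and 2.38 for *Atsdr4l-4*, 2.02 and 2.23 for *Atsdr4l-5*, and 2.34 and 2.49 for Col-0. The ranges overlapped in fold. As a rank within its own list it stood at percentile 39 to 48.1 at 3 DAI and 62.2 to 81.9 at 1 DAI, without overlap. The rank differed by -29.5 percentile points (exact permutation p = 0.00926, adjusted p = 0.0348), a call shared by 11.5% of 14875 genes. The strongest fold and its rank were not planned measures. The planned measure, the log2 of the mean fold over covered bases, differed by -0.16 and did not pass (exact permutation p = 0.0278, adjusted p = 0.0525). By that measure 1.31% of genes were called lower, and the median gene differed by 0.16, towards higher folds at 3 DAI.

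Over the gene and 2 kb upstream, the *ABI4* genotype differences stayed within the spread of replicates. At 3 DAI the window mean was 1400 ± 1458 bp in *Atsdr4l* (n = 4) and 1796 ± 1468 bp in Col-0 (n = 2), and the exact permutation gave p = 0.467. At 1 DAI it was 2784 ± 90.3 bp in *Atsdr4l* and 2805 ± 75 bp in Col-0 (exact permutation p = 0.867). Over both time points the difference was -208 bp (exact permutation p = 0.453, adjusted p = 0.911), and the difference of the time differences was -375 bp (exact permutation p = 0.493, adjusted p = 1). The log2 mean fold, taken in the wider window that reaches *AGL48*, differed by 0.0057 (exact permutation p = 0.929). In the wider window at 1 DAI, *Atsdr4l* lay below Col-0 without overlap, with 5327 to 5744 bp in *Atsdr4l* and 5989 and 6275 bp in Col-0. The difference of -515.8 bp had the smallest p that 4 libraries against 2 allow (exact permutation p = 0.0667, adjusted p = 0.696), and 9.91% of 18604 genes had this pattern.

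*ABI5* lies on chromosome 2 at 15204659 to 15207636, on the minus strand, with a window of 4978 bp that had no covered base in any library. One of its 3 annotated transcripts starts 976 bp further in. The nearest peak lay downstream of the gene, over AT2G36260 and AT2G36255. Its edge towards *ABI5* stood 3950 to 4009 bp after the *ABI5* start in *Atsdr4l* and 3946 and 4016 bp after it in Col-0 at 3 DAI, and 4527 to 4759 bp in *Atsdr4l* and 4316 and 4385 bp in Col-0 at 1 DAI. The edge was thus nearer to the gene in every library of 3 DAI than in any of 1 DAI, and still 969 to 1039 bp beyond its end. All 6 libraries of 3 DAI covered 300 bp, from 4016 to 4315 bp, that none of 1 DAI covered. In the wider window 962 to 1032 bp was covered at 3 DAI and 219 to 662 bp at 1 DAI, a difference of 540 bp (exact permutation p = 0.00926, adjusted p = 0.0336). The ranges did not meet, as in 19.0% of genes higher at 3 DAI, and 24.7% of genes were called higher. At 3 DAI *Atsdr4l* (969 to 1028 bp) overlapped Col-0 (1032 and 962 bp). At 1 DAI it did not, with 219 to 451 bp in *Atsdr4l* and 662 and 593 bp in Col-0, a pattern again shared by 9.91% of genes. The log2 fold of this peak differed by 0.07 between 3 and 1 DAI (exact permutation p = 0.417) and by -0.10 between *Atsdr4l* and Col-0 (exact permutation p = 0.2).

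**Figure D4:**
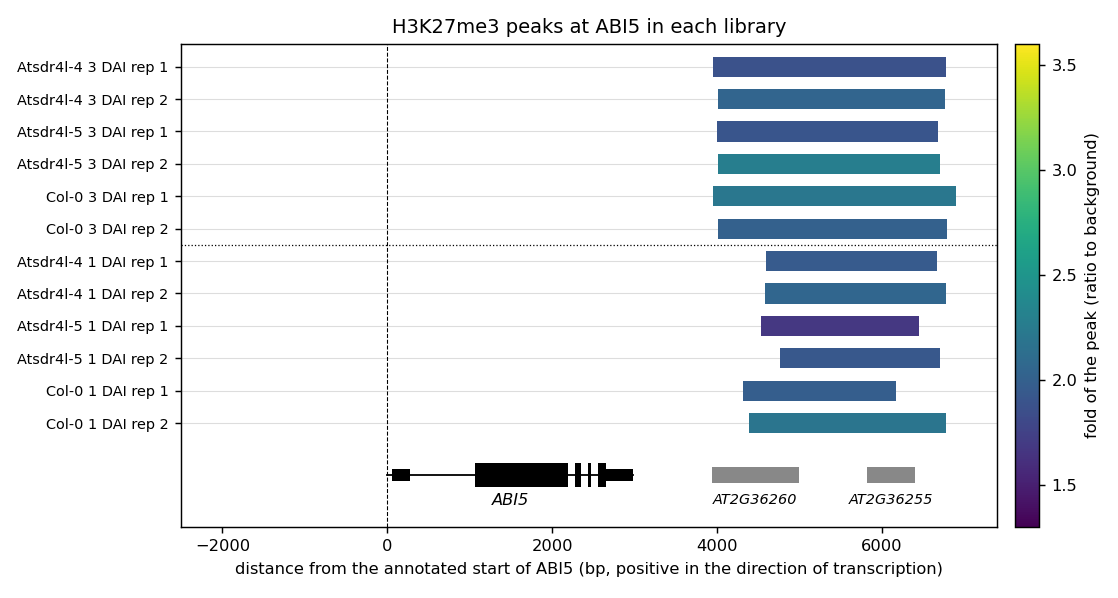
H3K27me3 peaks at *ABI5* in each library (rows), by distance from the annotated start (bp), coloured by fold, with *ABI5* in black and its downstream neighbours in grey. No peak touches *ABI5*, and the edge of the downstream peak stands at 3946 to 4016 bp at 3 DAI and 4316 to 4759 bp at 1 DAI.

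*EEL*, on chromosome 2 at 17129753 to 17132386 on the plus strand, and *AREB3*, on chromosome 3 at 21046234 to 21048614 on the minus strand, had no covered base in the narrow or the wider window of any library. The nearest peak to the *EEL* window was downstream, at 5710 to 5881 bp at 3 DAI and 3420 to 5718 bp at 1 DAI. For *AREB3* it was 7161 to 7323 bp away at 3 DAI and 6703 to 7443 bp away at 1 DAI. In having no covered base in any library these 3 bZIP genes were like 12027 of 27444 genes in all.

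The genes whose coverage over the 12 libraries was most like that of *bZIP67*, apart from genes within 10 kb, were AT1G02040, *TPPJ* (AT5G65140, a trehalose-6-phosphate phosphatase) and *DPMS3* (AT1G48140, dolichol phosphate mannose synthase 3). Their percent of window covered differed from that of *bZIP67* by 1.97, 2.13 and 2.19 percentage points, as the mean absolute difference. *ABI4* had no close match. The nearest were AT3G15300, AT3G45243 and AT1G22120, at 16.6, 16.9 and 17.4 percentage points.

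Among the other genes of the ABA pathway, which were listed with earlier results of these data known, 28 of 46 had a covered base in the window. Of these, 10 were called higher at 3 DAI (35.7% of the covered ones, against 19.5% of all covered genes). None was called lower, beside only 2.58% of all covered genes. The median difference was 3.75 bp over the 46 genes and 0 bp over all genes. The other group A bZIP genes gave no call. *ABF4*, *FD* and *FDP* had covered bases, with overlapping ranges at 3 and 1 DAI, and the remaining 6 of 9 had none. For the pathway and LAFL genes the window joins the gene with 2 kb upstream, and the parts are not given separately. Where 2 kb or less was covered, it may have lain upstream alone, as at *UBQ10*.

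The clade A protein phosphatases 2C, which hold ABA signalling off in the absence of the hormone, were split. *ABI1*, *ABI2*, *HAB1* and *AHG3* had no covered base in any library, *HAB2* gave no call, and 4 of the 5 covered genes were called higher at 3 DAI, without overlap, beside 19.5% called higher and 15.3% higher without overlap among all covered genes. *AHG1*, whose product acts in seeds, averaged 1714 bp at 3 DAI and 0 bp at 1 DAI, *HAI1* 3924 bp at 3 DAI and 141 bp at 1 DAI, *HAI2* 1999 bp at 3 DAI and 0 bp at 1 DAI, and *HAI3* 3096 bp at 3 DAI and 877 bp at 1 DAI (exact permutation p = 0.00926, adjusted p = 0.042 for all 4). For 3 of these, *AHG1*, *HAI1* and *HAI2*, the libraries had *Atsdr4l* below Col-0 without overlap at 3 DAI, as had 13.4% of all genes covered then. For *AHG1* the range was 1034 to 1727 bp in *Atsdr4l* and 2287 to 2463 bp in Col-0, for *HAI1* 2717 to 4387 bp in *Atsdr4l* and 4536 bp in both Col-0 libraries, and for *HAI2* 1489 to 1785 bp in *Atsdr4l* and 1884 to 3733 bp in Col-0.

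Of the 14 ABA receptor genes 11 had a covered base and 2 were called higher at 3 DAI, 18.2% of the covered ones and thus near the 19.5% of all covered genes. *PYL2* averaged 620 bp at 3 DAI and 0 bp at 1 DAI, and *PYL3* 946 bp at 3 DAI and 118 bp at 1 DAI (exact permutation p = 0.00926, adjusted p = 0.042 for both). At 3 DAI *PYL6* and *PYL8* had *Atsdr4l* above Col-0 without overlap, as had 2.64% of all genes covered then, at 1152 to 2873 bp in *Atsdr4l* against 0 to 934 bp in Col-0 for *PYL6*, and 961 to 1398 bp in *Atsdr4l* against 790 to 856 bp in Col-0 for *PYL8*. Neither of the covered SnRK2 kinase genes, *SNRK2.2* and *SNRK2.3*, gave a call, and *SNRK2.6* had no covered base.

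Of the 4 targets of ABI5 listed, 3 were called higher at 3 DAI, beside 19.5% of all covered genes. *EM6* averaged 2794 bp at 3 DAI and 1352 bp at 1 DAI, *EM1* 1265 bp at 3 DAI and 834 bp at 1 DAI, and *RAB18* 1338 bp at 3 DAI and 161 bp at 1 DAI (exact permutation p = 0.00926, adjusted p = 0.042 for all 3), while *RD29B* ranged from 0 to 1892 bp at 3 DAI and was 0 at 1 DAI (exact permutation p = 0.0833, adjusted p = 0.196). *EM1* and *EM6* encode late embryogenesis proteins, and *RAB18* a dehydrin. *RAB18* had 1295 to 1337 bp in *Atsdr4l* and 1348 to 1421 bp in Col-0 at 3 DAI, without overlap. That pattern, with *Atsdr4l* below Col-0, was shared by 13.4% of all genes covered then. Among the partners and turnover factors of ABI5, *DWA1*, a substrate receptor of CUL4 ubiquitin ligases, averaged 1277 bp at 3 DAI and 839 bp at 1 DAI (exact permutation p = 0.00926, adjusted p = 0.042). It was the 1 gene called higher of 3 covered genes in that list (33.3%), beside 19.5% of all covered genes. *AFP4* had 726 to 984 bp in *Atsdr4l* and 991 to 1075 bp in Col-0 at 3 DAI, without overlap, again beside 13.4%. *AFP1*, *AFP2*, *AFP3* and *KEG* had no covered base.

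The LAFL regulators, which command seed maturation, had 3 of 4 genes called higher at 3 DAI, beside 19.5% of all covered genes, and the ranges of 3 and 1 DAI overlapped for *LEC1*. *FUS3* averaged 3970 bp at 3 DAI and 0 bp at 1 DAI, *ABI3* 1937 bp at 3 DAI and 0 bp at 1 DAI, and *LEC1* 3692 bp at 3 DAI and 1812 bp at 1 DAI (exact permutation p = 0.00926, adjusted p = 0.042 for all 3), while *LEC2* was covered over 5010 bp in all libraries of 3 DAI and 4668 to 5010 bp at 1 DAI. *ABI3* was the one among them with *Atsdr4l* below Col-0 without overlap at 3 DAI, at 472 to 1512 bp in *Atsdr4l* and 3729 to 3799 bp in Col-0. Over the 46 ABA pathway genes 5 had *Atsdr4l* below Col-0 without overlap at 3 DAI and 2 above it, which is 17.9% and 7.14% of the 28 with a covered base at 3 DAI, beside 13.4% and 2.64% of all genes with one. Between 3 and 1 DAI, 10 of the 28 covered genes (35.7%) were higher without overlap and none was lower, beside 15.3% and 1.65% of all covered genes.

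**Figure D5:**
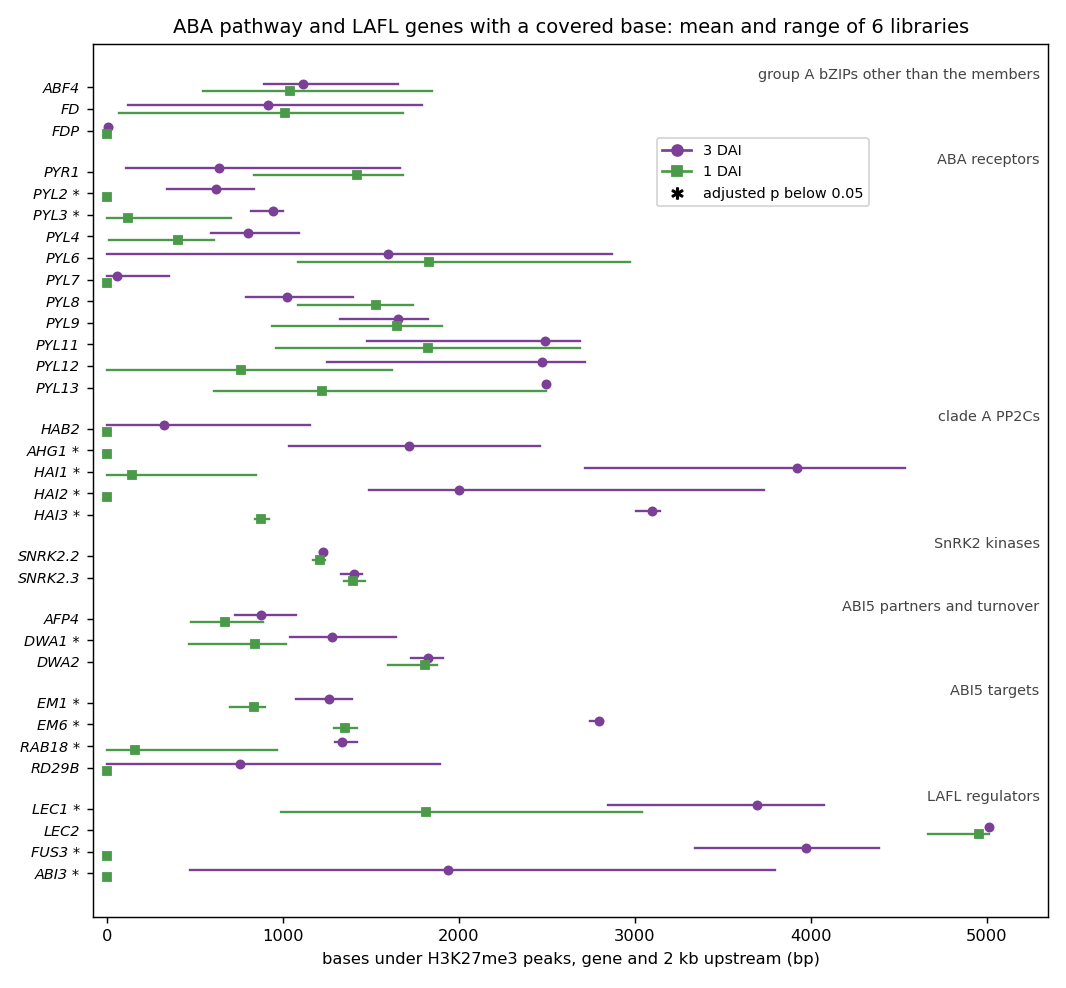
Bases under H3K27me3 peaks (bp) over the gene and 2 kb upstream for the ABA pathway and LAFL genes with a covered base, as the mean (marker) and range (line) of the 6 libraries of 3 DAI (circles) and of 1 DAI (squares), with an asterisk where the adjusted p is below 0.05. *HAI3*, *EM6*, *FUS3* and *ABI3* are among those whose ranges do not meet, and the group A bZIPs *ABF4* and *FD* overlap throughout.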

How the data were processed

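H3K27me3 ChIP-seq of 12 seedling libraries was analysed from broad peak lists. Per the study's methods, the authors ran fastp for trimming, Bowtie 2 for alignment to TAIR10, and MACS2 for broad peaks in every library separately, with the mock IgG alignments joined as control. The submitters' processing notes name fastp 0.23.4, SAMtools 1.6, and MACS2 2.2.6 and 2.2.7.1. For each peak the authors deposited the fold, a linear ratio of pileup to background, and the −log10 of the p and q values. The deposited score was not used. A list changes with depth, which is unknown. Mock IgG libraries were not analysed here, and organellar peaks were left out.

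Covered bases were computed per gene on TAIR10.1, and no peak ran past the end of a chromosome there. Gene names come from its RefSeq annotation. Groups follow the labels, with both alleles joined as *Atsdr4l*. Tests were two-sided exact permutations, of time labels within genotype (216 relabellings, smallest p 0.00926) or of genotype labels within time point (225, smallest p 0.00444), on every protein-coding gene with a covered base, with Benjamini-Hochberg adjustment and a threshold of 0.05. Code was checked on simulated data. The alternatives were peaks with −log10 q of at least 5 or fold of at least 2, equal peak numbers (6474), peaks under 500 bp apart joined, other windows, each library left out, single alleles, a replicate block, and a marked body at 20%, 80% or any base. The wider window for fold, the strongest fold and its percentile rank were chosen after seeing the data. So were the time test on *Atsdr4l* or Col-0 libraries only, and the block within a time point and for the difference of time differences. The members, lists and tests were chosen with earlier results of these data known. Besides the 5 genes, the text names the 3 genes of most similar coverage per covered gene, neighbours under the same peaks, and listed genes that passed the test or whose groups did not overlap. Python 3.11.15, numpy 2.4.6, pandas 2.3.3 and matplotlib 3.10.9 were used.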

Additional observations from a re-analysis of the deposited data

Results flagged for a closer look

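At 1 DAI the *bZIP67* window held 579 covered bp in Col-0 replicate 2 and 0 bp in the other libraries of that time point, which set this library apart from the rest of the 6 by Dixon's criterion. Among the groups of libraries checked for the 5 genes, chance flags about 1 in 20, but that rate does not apply here. With 0 bp in the other libraries, any covered length would have been flagged, so the flag says nothing about its size. Without this library the time difference at *bZIP67* was 1619 bp (exact permutation p = 0.00926, adjusted p = 0.0452).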

How the results depend on the processing

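For *bZIP67* the gain at 3 DAI kept its direction under all 22 alternatives and lost its adjusted call under 10. These were the gene alone (947.7 bp), the 2 kb upstream alone (574.5 bp), the replicate block (1522 bp, exact permutation p = 0.0313, adjusted p = 0.122), *Atsdr4l* libraries only (1410 bp), Col-0 libraries only (1746 bp) and 5 of 12 left-out libraries (1426 to 1619 bp over all 12). For *ABI4* the loss passed with peaks of fold at least 2 (-2791 bp) and in the wider window (-2632 bp), and ran from -1687 to -830.5 bp without single libraries. The fold cut left no covered base at 3 DAI, because the whole domains there had folds of 1.906 to 1.983, just under it. At 1 DAI the domain had folds of 2.023 to 2.491. The labels do not say whether replicate numbers pair the samples. Deviations correlated at -0.1 to 0.199 between groups, which does not settle it. Under the block no gene was called. The genotype differences and the difference of time differences kept their side of the threshold under the block (at *bZIP67* -626 bp at 3 DAI, exact permutation p = 0.111, the smallest that block allows).

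Genome-wide calls (3002 higher, 397 lower) were 1974 and 150 with fold at least 2, 5073 and 595 in the wider window, and 218 lower with −log10 q at least 5. They were 0 in the gene or the upstream part alone, where the smallest p did not pass after adjustment. They were also 0 without either *Atsdr4l-4* replicate of 1 DAI, Col-0 replicate 1 of 3 DAI, or either *Atsdr4l-5* replicate of 3 DAI. The same held for the *Atsdr4l* or the Col-0 libraries alone. Every adjusted call over time in the gene and 2 kb upstream was thus lost in these settings.

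Genotype differences that turned sign were never called. At *ABI4* the difference over both time points ran from -727 to 311 bp without single libraries and that at 3 DAI from -1434 to 642.5 bp, positive without Col-0 replicate 2 or *Atsdr4l-5* replicate 2 of 3 DAI (25.2 and 71.3 bp without the second). At 1 DAI it ran from -74 to 32 bp without single libraries. The difference of time differences at *ABI4* was 21 bp with fold at least 2, 4.5 bp with equal peak numbers or upstream alone, 166.8 bp in the wider window and -1412 to 663.5 bp without single libraries (92.3 bp without *Atsdr4l-5* replicate 2 of 3 DAI). At *bZIP67* it was 14.3 bp upstream alone, and the 1 DAI genotype difference was 15 bp in the wider window. The log2 fold at *ABI4* between genotypes was -0.0546 with −log10 q at least 5 or the strongest peak, -0.0411 with equal numbers, -6.01 as a percentile rank and -0.0243 to 0.0358 without single libraries. The time difference of the *ABI5* peak was -6.40 as a percentile rank.

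Libraries with a marked *ABI4* body at 3 DAI fell to 0 with fold at least 2. For *bZIP67* they were 6 at 20% or any base and 0 at 80% at 3 DAI, and 1 at 20% or any base at 1 DAI, and 1 to 2 without single libraries at 3 DAI. Peak edges, not reads, carry every length given here, and unknown depth limits all of them.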
